A study of Mus musculus with 12 samples.

Results

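2610528A11Rik and Gpr15 encode a secreted ligand and its receptor, and their transcript levels were followed in mouse ear skin across 4 groups of 3 RNA sequencing libraries. The 2 genes, of 23234 listed, were chosen by name, for an order of levels in wild type ears that ran upward over no treatment, phosphate-buffered saline (PBS) and Oxarol. That choice used the wild type values, so those values are given as a description with no test. 2610528A11Rik followed the order and Gpr15 did not.

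The first group is labelled K5-Cre;VDR f/f and was sampled 1 day after Oxarol, an ointment with the vitamin D3 analogue maxacalcitol (100 mg of ointment and 2.5 µg of the analogue per ear). The other groups are wild type C57BL/6J, 1 day after Oxarol (WT Oxarol), 1 day after PBS (WT PBS) or untreated (WT untreated). All mice were 8 to 12 weeks old. In K5-Cre;VDR f/f mice the keratin 5 promoter drives Cre recombinase in basal keratinocytes of epidermis and hair follicles, where it deletes a floxed stretch of Vdr, the vitamin D receptor gene, while other skin cells keep it. This genotype was measured under Oxarol only, its strain is given as the genotype alone, and PBS is not the ointment base. Whether each library of a group is 1 animal is not stated, so a p-value here measures the spread between libraries, part of which may be technical.

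2610528A11Rik, also named Gpr15l, encodes a small basic peptide that epithelial cells of skin and gut secrete, and the human peptide has antimicrobial activity. Its receptor Gpr15 is a G protein-coupled receptor of T cells. In mice it directs regulatory T cells to the large intestine and precursors of the epidermal T cells to fetal skin. Vitamin D receptor, once bound by an active vitamin D3 analogue, enters the nucleus as a heterodimer with retinoid X receptor and changes transcription. Cyp24a1, the enzyme that inactivates vitamin D, is its standard target.

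The 250 bases before the start of 2610528A11Rik in RefSeq on build GRCm38.p6 (chr14:37110102-37110351, minus strand, printed 5′ to 3′ along the gene) are shown because this gene carries the response. The capitals mark a TATA box.
2610528A11Rik promoter: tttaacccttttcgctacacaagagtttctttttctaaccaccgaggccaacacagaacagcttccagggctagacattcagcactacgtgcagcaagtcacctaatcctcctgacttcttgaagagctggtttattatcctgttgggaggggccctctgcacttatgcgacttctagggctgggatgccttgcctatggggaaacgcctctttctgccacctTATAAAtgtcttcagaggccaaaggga
The letters TATAAA begin 27 bases before the start, and 13.0% of 27025 RefSeq promoters of this length hold them on either strand. The window has a GC content of 49.2%, against a median of 52% over all promoters. The half-site of the vitamin D receptor, AGGTCA, was not in it on either strand, and AGTTCA was absent too, as was GGGTCA, and so was GGTTCA. Of all promoters, 38.4% hold at least one of these. GCGTG, the core letters of the aryl hydrocarbon receptor element, was not in it either (28.2% of promoters), nor was TGANTCA of AP-1 (6.87% of promoters), each on both strands. These searches cover this window and these letters only.

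2610528A11Rik stood at 5.74, 6.37 and 6.37 FPKM (fragments scaled to transcript length and to the fragments mapped) in the libraries labelled K5-Cre;VDR f/f. It had 21.3, 36.6 and 28.0 FPKM in WT Oxarol. In WT PBS the values were 9.77, 11.6 and 4.01 FPKM, and in WT untreated 1.16, 0.454 and 0.643 FPKM. The gene was thus lowest in untreated ears and highest in wild type ears under the ointment. No 2 wild type groups overlapped, an order the gene was chosen for. Of all tested genes, 15.9% did not overlap between WT Oxarol and WT PBS, 18.8% between WT Oxarol and WT untreated and 13.0% between WT PBS and WT untreated. The libraries labelled K5-Cre;VDR f/f lay wholly below WT Oxarol, wholly above WT untreated and inside the range of WT PBS. Of all tested genes, 42.2% did not overlap between the libraries labelled K5-Cre;VDR f/f and WT Oxarol, and 37.9% between the libraries labelled K5-Cre;VDR f/f and WT untreated.

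**Figure D1:**
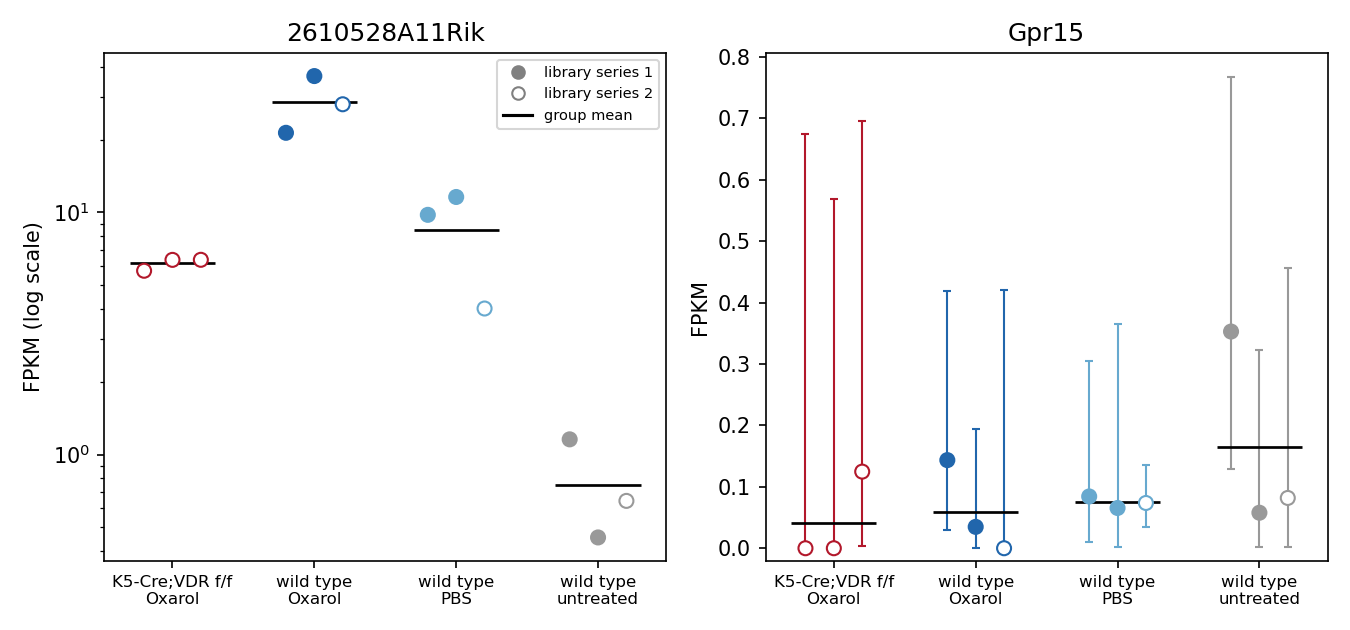
FPKM of 2610528A11Rik (left, log axis) and Gpr15 (right, linear axis) in each library of the 4 groups. Points are libraries, filled for the first series of library codes and open for the second, black lines are group means, and bars on the right are exact 95% Poisson intervals of each library. The 3 WT Oxarol points on the left, 21.3 to 36.6 FPKM, lie above all others, whereas the intervals of Gpr15 overlap between all groups.

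The mean level of 2610528A11Rik was 6.16 ± 0.363 FPKM in the libraries labelled K5-Cre;VDR f/f, 28.6 ± 7.65 FPKM in WT Oxarol, 8.46 ± 3.96 FPKM in WT PBS and 0.751 ± 0.363 FPKM in WT untreated (SD, n = 3 each). WT Oxarol thus held 38.1 times the mean level of WT untreated and 3.39 times that of WT PBS. WT PBS held 11.3 times the mean level of WT untreated. By mean FPKM, the gene ranked above 79.0% of the 14059 tested genes in WT Oxarol but above 1.82% of them in WT untreated. The differences of mean log2(FPKM + 1) were 1.72 for WT Oxarol minus WT PBS, 4.07 for WT Oxarol minus WT untreated and 2.35 for WT PBS minus WT untreated. All 3 come from values that chose the gene. Among the 14059 genes they ranked 52, 20 and 37 from the highest difference.

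The wild type spread was uneven, and the counts behind it were small in places. In 64.1% of 3526 low genes all values were whole multiples of a step, the value of a library's smallest count. Both genes here resolved into whole steps within 0.0144 of a step. 2610528A11Rik had 16, 21 and 26 steps in the libraries labelled K5-Cre;VDR f/f, 227, 535 and 125 in WT Oxarol, 118, 90 and 277 in WT PBS, and 10, 4 and 4 in WT untreated. Pooled over a group, this gave 6.20 FPKM (exact Poisson 95% interval 4.76 to 7.93) in the libraries labelled K5-Cre;VDR f/f and 29.8 FPKM (27.9 to 31.9) in WT Oxarol. It gave 5.45 FPKM (4.98 to 5.96) in WT PBS and 0.760 FPKM (0.451 to 1.20) in WT untreated. The pooled WT PBS value is carried by replicate 3, and without it the pool was 10.5 FPKM (9.11 to 12.0), above and not below that of the libraries labelled K5-Cre;VDR f/f. The lowest WT PBS value, 4.01 FPKM in replicate 3, rested on the largest PBS number of steps, with an interval of 3.55 to 4.51 FPKM. It lay below the intervals of the other PBS libraries, 8.09 to 11.7 and 9.31 to 14.2 FPKM, so counting error does not cover the spread within WT PBS. These intervals cover counting error only, and a step may stand for more than 1 fragment.

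The K5-Cre;VDR f/f libraries played no part in choosing the gene, although the wild type libraries they were compared with did. Choosing by a high WT Oxarol and a low WT untreated level favours a fall against the former and a rise against the latter. The p-values of both comparisons may thus be too small. 2610528A11Rik fell in the libraries labelled K5-Cre;VDR f/f relative to WT Oxarol, to 0.215 of its mean FPKM. On the log2(FPKM + 1) scale the difference was -2.02 ± 0.31 (SE, 95% interval -2.71 to -1.33; limma with Benjamini-Hochberg adjustment over all genes tested, adjusted p = 0.00765), and it was the 64th lowest of 14059. In this comparison 13.1% of the tested genes passed the threshold of 0.05 in either direction, 8.71% higher and 4.43% lower. The gene kept its call under all 21 alternative settings (adjusted p 0.00135 to 0.0416). A two-sided exact permutation test of the gene alone gave p = 0.1, the smallest that 3 against 3 libraries allow. In bulk skin, fewer cells that express a gene and less RNA per cell cannot be told apart.

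The level in the libraries labelled K5-Cre;VDR f/f was not that of untreated wild type ears. 2610528A11Rik was 2.05 ± 0.31 (SE) higher there than in WT untreated on the log2(FPKM + 1) scale (95% interval 1.36 to 2.74; limma, adjusted p = 0.00409, where 19.0% of all tested genes were called and 12.8% were called higher), or 8.20 times the mean FPKM. Against WT PBS the difference was -0.30 ± 0.31 (SE, limma, adjusted p = 0.526, with 16.3% of genes called). Its 95% interval, -0.99 to 0.39, holds both no difference and a difference of almost 1 log2 unit. The difference was -0.70 ± 0.22 (SE, limma, adjusted p = 0.0635) without WT PBS replicate 3 and -0.003 ± 0.33 (SE, limma, adjusted p = 0.997) with the series of library codes as a term. In the order of levels, WT untreated was lowest and WT Oxarol highest, and the libraries labelled K5-Cre;VDR f/f and WT PBS between them did not differ beyond their spread.

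The library codes fall into 2 series, the second of which holds all 3 libraries labelled K5-Cre;VDR f/f and replicate 3 of each wild type group. The labels do not say what a series is. Within the second series 2610528A11Rik stood at 5.74 to 6.37 FPKM in the libraries labelled K5-Cre;VDR f/f, against 28.0 FPKM in WT Oxarol, 4.01 FPKM in WT PBS and 0.643 FPKM in WT untreated. With the series as a term the difference from WT Oxarol was -1.72 ± 0.33 (SE, limma, adjusted p = 0.0416). The order of Oxarol, PBS and untreated among the wild type libraries was the same in both series. That had to be so, since the gene was chosen for this order and no 2 wild type groups overlapped.

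Genotype and treatment labels were checked on Vdr and Cyp24a1. Vdr had 23.6, 25.0 and 18.0 FPKM in the libraries labelled K5-Cre;VDR f/f, against 7.87, 6.68 and 7.05 FPKM in WT Oxarol, and rose by 1.49 ± 0.21 log2 units (SE, limma, adjusted p = 0.00558). The direction goes against the label, but the gene-level FPKM includes any exon left after deletion and so is no check of it. Cyp24a1 was listed at 0, 0.271 and 0.175 FPKM in the libraries labelled K5-Cre;VDR f/f, against 66.2, 599 and 458 FPKM in WT Oxarol. It had 0.0296, 0.0230 and 0.0130 FPKM in WT PBS and 0.372, 0.0203 and 0 FPKM in WT untreated. The difference of Cyp24a1 for WT Oxarol minus WT PBS was 8.02 ± 0.62 (SE, limma, adjusted p = 0.000566). For the libraries labelled K5-Cre;VDR f/f it was -7.85 ± 0.62 relative to WT Oxarol (SE, limma, adjusted p = 0.000689). Relative to WT PBS it was 0.16 ± 0.62 (SE, limma, adjusted p = 0.876). The libraries labelled K5-Cre;VDR f/f thus lacked the rise of Cyp24a1 that WT Oxarol showed. Across the series, 17323 to 19478 genes had a value above 0, and log2 values correlated at Pearson r = 0.931 to 0.966 within groups. Relative to the deepest library, WT PBS replicate 3, the steps gave depths of 0.0403 to 0.0591 for the libraries labelled K5-Cre;VDR f/f and 0.0647 to 0.212 for the other wild type libraries.

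Gpr15, the receptor, did not follow its ligand. It was listed at 0, 0 and 0.125 FPKM in the libraries labelled K5-Cre;VDR f/f. WT Oxarol held 0.143, 0.0348 and 0 FPKM, WT PBS 0.0843, 0.0655 and 0.0737 FPKM, and WT untreated 0.353, 0.0578 and 0.0819 FPKM. The highest value was that of an untreated ear, the means ran in the opposite order to the one the gene was chosen for, and each group overlapped every other. Gpr15 did not reach 1 FPKM in any library, so it was not tested, and 1 of the 2 genes passed the filter on low values.

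These Gpr15 values amount to 0, 0 and 1 steps in the libraries labelled K5-Cre;VDR f/f, 3, 1 and 0 in WT Oxarol, 2, 1 and 10 in WT PBS, and 6, 1 and 1 in WT untreated. In the 3 libraries at 0, a level under 3 steps could have been missed. That is under 0.548 and 0.463 FPKM in replicates 1 and 2 labelled K5-Cre;VDR f/f and under 0.342 FPKM in WT Oxarol replicate 3. The exact Poisson 95% intervals of these zeros reached up to 0.674, 0.570 and 0.420 FPKM, in the same order. The pooled level was 0.0501 FPKM (exact Poisson 95% interval 0.00127 to 0.279) in the libraries labelled K5-Cre;VDR f/f. It was 0.0685 FPKM (0.0187 to 0.175) in WT Oxarol, 0.0744 FPKM (0.0396 to 0.127) in WT PBS and 0.172 FPKM (0.0743 to 0.339) in WT untreated. Without WT untreated replicate 1 the pool of that group was 0.0678 FPKM (0.00821 to 0.245), and without WT Oxarol replicate 1 that of WT Oxarol was 0.0267 FPKM (0.000675 to 0.149). All 4 intervals overlap, and a difference between groups was not detectable at this depth. Ccr10, the receptor of Ccl27a, was likewise low, at 0 to 0.441 FPKM over the libraries, whereas Ccr4, another receptor of skin homing T cells, ran at 2.36 to 4.39 FPKM.

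T cell transcripts were measured well above this level. Of 18 T cell genes, 15 were tested, and in the libraries labelled K5-Cre;VDR f/f against WT Oxarol 2 rose, Cd3e and Cd3g, which encode chains of the T cell receptor complex, and 0 fell. That is near the share of all tested genes called in this comparison, 13.1% in either direction and 8.71% higher. Cd3e differed by 0.62 ± 0.12 (SE, limma, adjusted p = 0.0162) and Cd3g by 0.63 ± 0.14 (SE, limma, adjusted p = 0.0206) on the log2 scale. Both calls were lost without WT Oxarol replicate 2 and without replicates 1 or 3 labelled K5-Cre;VDR f/f, and that of Cd3g also without replicate 2, with differences of 0.58 to 0.68 for Cd3e and 0.57 to 0.66 for Cd3g when 1 library was left out. The list's median difference was 0.34, against 0.08 over all tested genes, and the summed level of the list was 126 to 147 FPKM in the libraries labelled K5-Cre;VDR f/f against 91.3 to 105 FPKM in WT Oxarol. That sum was 103 to 110 FPKM in WT PBS and 91.4 to 119 FPKM in WT untreated. Thy1 alone held 36.9 to 45.3 FPKM of it in the libraries labelled K5-Cre;VDR f/f and 31.3 to 38.4 FPKM in WT Oxarol. The sum thus leans on 1 gene and was not tested as a measure of T cell number. Between WT Oxarol and WT PBS, 0 of the 15 passed at an adjusted p under 0.05 by limma, where 0.306% of all tested genes did.

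Regulatory T cells are one of the kinds of cell that carry Gpr15 in mice. Foxp3, their defining transcription factor, was listed at 0 to 0.279 FPKM over the libraries, while Tnfrsf18, a receptor that other T cells also express, ran at 18.7 to 33.2 FPKM. Of 9 genes of the list 5 were tested. In the libraries labelled K5-Cre;VDR f/f, 0 rose and 0 fell relative to WT Oxarol, with a median difference of -0.15. Of 14 genes of epidermal and gamma delta T cells, 7 were tested and 1 rose, Itgae, the integrin chain that holds T cells in epithelium, again near the 13.1% of all tested genes. It differed by 0.54 ± 0.13 (SE, limma, adjusted p = 0.028), a call lost under 8 of 20 alternatives, among them leaving out any 1 of the 6 libraries compared (0.47 to 0.59).

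2610528A11Rik was set beside 17 other attractants of lymphocytes, of which 12 were tested. In the libraries labelled K5-Cre;VDR f/f against WT Oxarol, 4 of these rose and 0 fell (8.71% and 4.43% of all tested genes), with a median difference of 0.54, whereas 2610528A11Rik fell. The 4 were Ccl27a, the ligand of Ccr10 made by keratinocytes, Cxcl12, the ligand of Cxcr4, and the chemokines Ccl8 and Cxcl16. The calls of Ccl27a and Cxcl12 held under all 21 alternatives. Those of Ccl8 (0.79 ± 0.21, SE, limma, adjusted p = 0.0362) and Cxcl16 (0.35 ± 0.09, SE, limma, adjusted p = 0.0378) were lost under 10 and 11 of them. Among these was leaving out any 1 WT Oxarol library, with differences of 0.69 to 0.87 for Ccl8 and 0.29 to 0.44 for Cxcl16 when 1 library was left out. Under quantile normalization, which moved the median of all genes to -0.04, 3 of the 12 rose, and with the library series as a term 2 did.

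In the wild type groups Ccl27a showed the opposite order to 2610528A11Rik, and its mean was highest in the libraries labelled K5-Cre;VDR f/f. It had 327, 257 and 213 FPKM in the libraries labelled K5-Cre;VDR f/f, and 126, 61.4 and 67.4 FPKM in WT Oxarol. WT PBS had 196, 130 and 193 FPKM and WT untreated 274, 241 and 256 FPKM. WT Oxarol was lowest and overlapped no other group, while the libraries labelled K5-Cre;VDR f/f overlapped WT untreated. The shares of all tested genes without overlap with WT Oxarol were 15.9% for WT PBS and 18.8% for WT untreated. For the libraries labelled K5-Cre;VDR f/f that share was 42.2%. The difference between the libraries labelled K5-Cre;VDR f/f and WT Oxarol was 1.69 ± 0.26 (SE, limma, adjusted p = 0.00765). Between WT Oxarol and WT PBS Ccl27a did not pass (adjusted p = 0.171 by limma), and 0 of the 12 tested attractants did. Relative to WT untreated, Ccl27a was lower in WT Oxarol (-1.66 ± 0.26, SE, limma, adjusted p = 0.0193). There 2 of the 12 were called lower, Ccl27a and Cxcl16, and 0 higher, where 184 of 14059 tested genes were called in either direction.

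Cxcl12, unlike Ccl27a, overlapped between all wild type groups. It had 89.8, 84.2 and 90.2 FPKM in the libraries labelled K5-Cre;VDR f/f, against 48.3, 47.6 and 45.4 FPKM in WT Oxarol, and differed by 0.89 ± 0.09 (SE, limma, adjusted p = 0.00156). The wild type libraries all lay between 42.7 and 55.6 FPKM. Genotype and library series cannot be told apart in full here, since all libraries labelled K5-Cre;VDR f/f are of the second series, and the genotype was measured under Oxarol only.

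**Figure D2:**
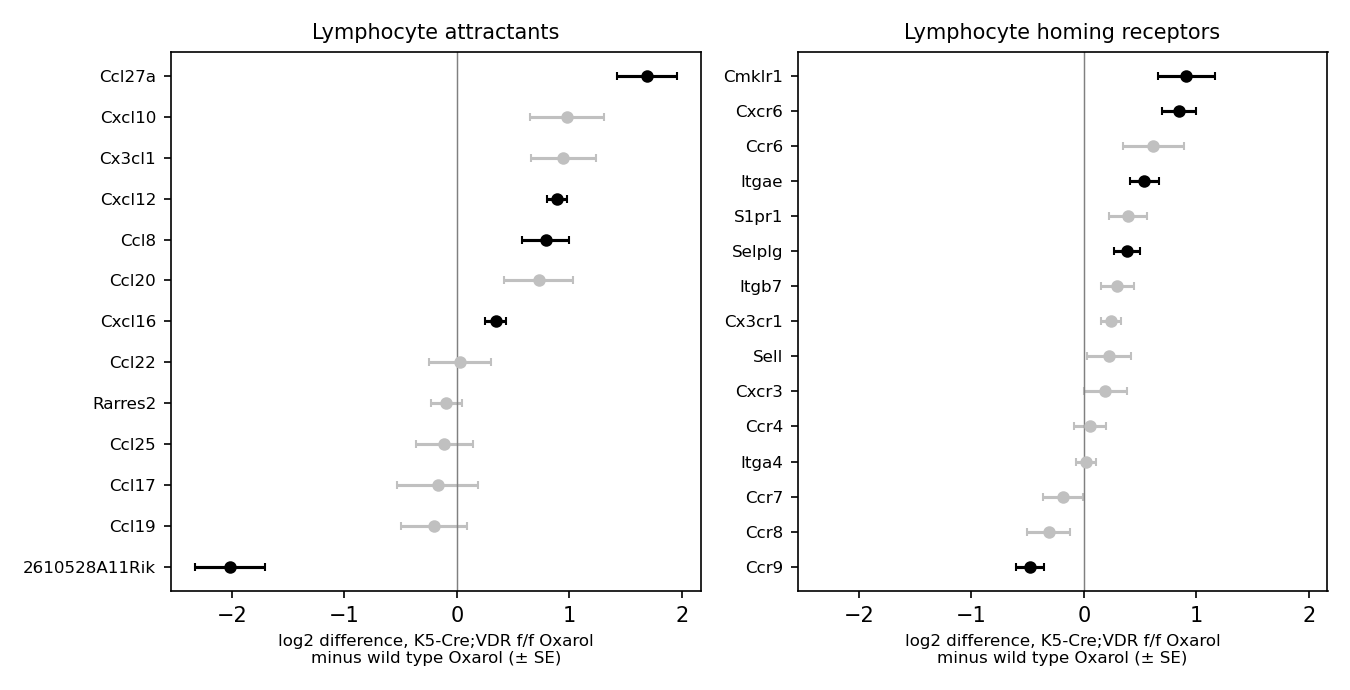
Differences of log2(FPKM + 1), libraries labelled K5-Cre;VDR f/f minus WT Oxarol, for 2610528A11Rik with 12 lymphocyte attractants (left) and for 15 lymphocyte homing receptors (right). Points are differences, bars are moderated standard errors, and black marks an adjusted p under 0.05 (limma) and grey the rest. 2610528A11Rik, at -2.02, is the 1 gene of the left panel called lower, and Ccl27a, at 1.69, lies farthest on the other side.

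Among 18 homing receptors and adhesion molecules of lymphocytes, 15 were tested, and 4 rose and 1 fell in the libraries labelled K5-Cre;VDR f/f against WT Oxarol (8.71% and 4.43% of all tested genes), with a median difference of 0.24. Under quantile normalization 1 rose, Cxcr6, and 1 fell, Ccr9. Cxcr6, the receptor of Cxcl16, had 7.17, 5.26 and 6.74 FPKM in the libraries labelled K5-Cre;VDR f/f, against 3.08, 2.49 and 3.81 FPKM in WT Oxarol. It differed by 0.84 ± 0.15 (SE, limma, adjusted p = 0.0109), with no overlap, as in 42.2% of all tested genes, and missed the threshold with the library series as a term (0.82 ± 0.18, SE, limma, adjusted p = 0.0515). The other calls were Itgae, Cmklr1 (0.91 ± 0.26, SE) and Selplg (0.39 ± 0.11, SE), which were higher, and Ccr9, the gut homing receptor (-0.48 ± 0.13, SE), which was lower, with adjusted p of 0.028 to 0.0475 by limma. Leaving out any 1 of the 6 libraries compared ended each of these 4 calls, with differences of 0.57 to 1.09 for Cmklr1, 0.33 to 0.46 for Selplg and -0.55 to -0.41 for Ccr9. With the series term 0 of the 15 passed, and 0 passed between WT Oxarol and WT PBS at an adjusted p under 0.05 by limma.

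The aryl hydrocarbon receptor, a ligand-activated transcription factor, controls Gpr15 in mouse T cells, and its own transcript and targets were described for that reason. Of 8 genes 6 were tested, and 2 rose in the libraries labelled K5-Cre;VDR f/f against WT Oxarol, Cyp1b1, a target (0.68 ± 0.17, SE), and Arnt, the partner of the receptor (0.42 ± 0.12, SE), with adjusted p of 0.0296 and 0.0459 by limma. Of all tested genes 8.71% were called higher. Of 21 alternatives, 8 ended the first call and 14 the second, leaving out any 1 of the 6 libraries compared among them (0.61 to 0.74 for Cyp1b1 and 0.39 to 0.44 for Arnt), and 0 of the 6 passed under the series term. Ahr, the receptor's transcript, had 20.2, 19.0 and 21.1 FPKM in the libraries labelled K5-Cre;VDR f/f, against 15.3, 10.1 and 14.2 FPKM in WT Oxarol. It narrowly missed the threshold (0.59 ± 0.18, SE, limma, adjusted p = 0.05003). Cyp1a1, the standard target, had 21.2, 7.46 and 9.43 FPKM in the libraries labelled K5-Cre;VDR f/f, against 4.79, 7.66 and 6.23 FPKM in WT Oxarol, and did not pass (limma, adjusted p = 0.103). Between WT Oxarol and WT PBS, 0 of the 6 passed by limma.

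Since the ligand is also counted among epithelial antimicrobial peptides, it was set beside 14 of these, of which 11 were tested. In the libraries labelled K5-Cre;VDR f/f against WT Oxarol, 3 rose, Defb6, Defb1 and S100a7a, and 1 fell, Defb14 (8.71% and 4.43% of all tested genes), with a median difference of 0.42. Leaving out 1 library ended the calls of Defb1 (0.56 to 0.67) and S100a7a (1.56 to 2.46). This held for WT Oxarol replicates 2 and 3 and for replicates 1 and 2 labelled K5-Cre;VDR f/f in both genes, for replicate 3 of that label in Defb1, and for WT Oxarol replicate 1, WT PBS replicate 1 and WT untreated replicate 2 in S100a7a. Defb14, a beta-defensin of keratinocytes, had 43.0, 50.7 and 56.8 FPKM in the libraries labelled K5-Cre;VDR f/f, against 106, 200 and 115 FPKM in WT Oxarol. It had 49.0, 54.6 and 44.8 FPKM in WT PBS and 54.9, 51.6 and 29.6 FPKM in WT untreated. Like 2610528A11Rik it was highest in WT Oxarol, without overlap, but unlike it WT PBS and WT untreated overlapped. Such a lack of overlap with WT Oxarol held for 15.9% of all tested genes in WT PBS and 18.8% in WT untreated. In the libraries labelled K5-Cre;VDR f/f it held for 42.2%. The difference between the libraries labelled K5-Cre;VDR f/f and WT Oxarol was -1.42 ± 0.26 (SE, limma, adjusted p = 0.0138). It missed the threshold without replicate 1 labelled K5-Cre;VDR f/f (-1.31 ± 0.30, SE, limma, adjusted p = 0.0503) and with the library series as a term (-1.11 ± 0.25, SE, limma, adjusted p = 0.0564). Defb6, another beta-defensin, moved the other way, by 2.56 ± 0.30 (SE, limma, adjusted p = 0.00299). S100a8, S100a9, Defb4 and Lcn2 lay wholly higher in WT PBS than in WT untreated. Of all tested genes, 13.0% did not overlap there. S100a8 had 58.7, 67.6 and 26.8 FPKM in WT PBS, against 6.74, 1.66 and 9.85 FPKM in WT untreated. Of the 11 differences for WT PBS minus WT untreated, 9 were above 0 and 2 below, and 0 passed by limma. For WT Oxarol minus WT untreated, S100a8, Defb14 and S100a9 were called higher and 0 lower by limma. There 184 of 14059 tested genes were called.

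Of 15 genes of activated epidermis 12 were tested, and 1 rose, Krt17, a keratin of injured epidermis and hair follicles, and 1 fell, Tslp, an epithelial cytokine, in the libraries labelled K5-Cre;VDR f/f against WT Oxarol, near the shares of all tested genes (8.71% higher and 4.43% lower). Tslp had 4.90, 7.38 and 6.98 FPKM in the libraries labelled K5-Cre;VDR f/f, against 9.65, 19.3 and 24.3 FPKM in WT Oxarol. It differed by -1.26 ± 0.28 (SE, limma, adjusted p = 0.0212), a call lost without WT Oxarol replicates 2 or 3 or any 1 library labelled K5-Cre;VDR f/f (-1.63 to -1.0, adjusted p up to 0.0758 by limma). Of 10 genes of basal keratinocytes, the cells that keratin 5 marks, 0 passed by limma in this comparison, and their median difference was 0.05. Of 11 tested genes of suprabasal keratinocytes 3 rose and 0 fell, against 8.71% and 4.43% of all tested genes, with a median difference of 0.45. They were Casp14, a protease of cornification (2.06 ± 0.18, SE, limma, adjusted p = 0.000689), Ivl, a protein of the cornified envelope (1.03 ± 0.19, SE, limma, adjusted p = 0.0128), and Sbsn (0.45 ± 0.12, SE, limma, adjusted p = 0.0406). The call of Ivl was lost without WT Oxarol replicate 2 (0.89 ± 0.20, SE, limma, adjusted p = 0.0505), and that of Sbsn under 11 of 21 alternatives (0.40 to 0.52 when 1 library was left out, which ended it for each library labelled K5-Cre;VDR f/f, WT Oxarol replicates 2 and 3, WT PBS replicates 1 and 2 and WT untreated replicate 2). The part of keratinocyte differentiation in the difference of 2610528A11Rik was not tested.

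Hair follicle and macrophage genes also separated the libraries labelled K5-Cre;VDR f/f from WT Oxarol. Of 19 tested hair follicle genes 14 rose, against 8.71% of all tested genes, with a median difference of 3.71, and the summed level was 326 to 1399 FPKM in the libraries labelled K5-Cre;VDR f/f against 18.6 to 80.5 FPKM in WT Oxarol. Under the series term 0 of the 19 passed by limma (median difference 2.66). Of 15 macrophage and monocyte genes 8 rose, again against 8.71%, and 2 passed with the series as a term. Their summed level was 1086 to 1361 FPKM in the libraries labelled K5-Cre;VDR f/f against 662 to 856 FPKM in WT Oxarol. Lyz2 alone held 473 to 643 FPKM of that sum in the former and 238 to 325 FPKM in the latter, so the sum leans on 1 gene. The part of hair follicle cells and macrophages in the difference of 2610528A11Rik was not tested. In wild type ears the hair follicle sum was 18.6 to 80.5 FPKM in WT Oxarol, 20.2 to 378 FPKM in WT PBS and 21.6 to 202 FPKM in WT untreated.

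The 8 genes whose profile was most like that of 2610528A11Rik, by Pearson r of log2(FPKM + 1) over the 12 libraries among the 14059 tested genes, were Krt6b, Prss27, Igsf3, Atp13a4, Wdr36, Gm5803, Gm5478 and Cmah. Their r ran from 0.918 to 0.942 and Spearman's rho from 0.895 to 0.951, and much of this likeness is the difference between group means that all share. With group means removed, r ran from 0.504 for Gm5478 to 0.915 for Cmah. Krt6b, a keratin of wounded and activated epidermis, had the highest r. It stood at 27.0, 25.5 and 12.1 FPKM in the libraries labelled K5-Cre;VDR f/f, 50.3, 80.7 and 35.0 FPKM in WT Oxarol, 37.8, 41.9 and 13.8 FPKM in WT PBS, and 3.84, 3.71 and 5.44 FPKM in WT untreated. As with 2610528A11Rik, WT untreated was lowest and WT PBS replicate 3 lay below its group, but the WT Oxarol and WT PBS libraries of Krt6b overlapped.

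Prss27, an epithelial serine protease, averaged 12.4 ± 1.10 FPKM in the libraries labelled K5-Cre;VDR f/f, 42.9 ± 12.3 FPKM in WT Oxarol, 12.6 ± 6.90 FPKM in WT PBS and 5.34 ± 2.77 FPKM in WT untreated (SD, n = 3 each). Krt6b and Prss27 spanned the widest range of group means among the 8, and the rest were also highest in WT Oxarol and lowest in WT untreated. Cmah, which makes the sialic acid N-glycolylneuraminic acid, averaged 11.1 FPKM in the libraries labelled K5-Cre;VDR f/f, 16.3 FPKM in WT Oxarol, 10.7 FPKM in WT PBS and 7.08 FPKM in WT untreated. These likenesses are descriptions over libraries that share treatment and depth.

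**Figure D3:**
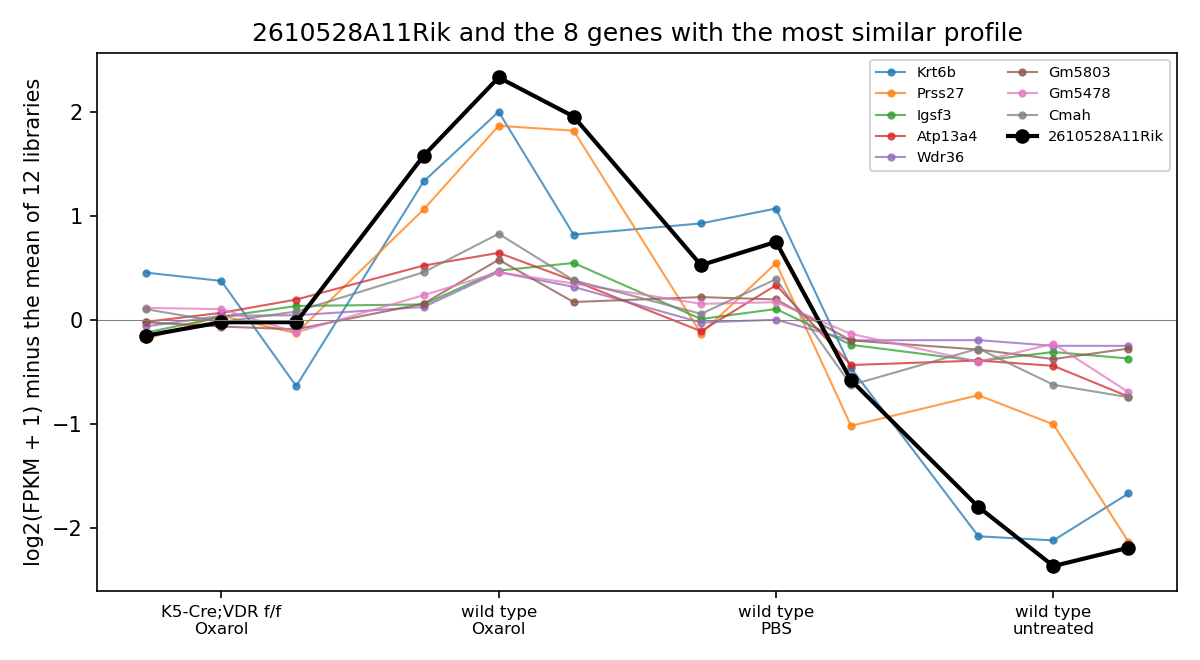
Log2(FPKM + 1) of 2610528A11Rik (black) and the 8 genes with the highest Pearson r to it, each minus its mean over the 12 libraries, by library and group. Lines join libraries for reading only, since replicates have no order. 2610528A11Rik, Krt6b and Prss27 span the widest range, and all 9 genes are highest in WT Oxarol by group mean.

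For Gpr15 the same rule named Zfp292, Tbc1d15, 2610044O15Rik, Thoc2, Pnrc2, Prpf4b, Tpr and Rsf1, with r of 0.903 to 0.964. Without WT untreated replicate 1, the highest Gpr15 library, r ran from 0.593 to 0.941. Since Gpr15 rests on 0 to 10 steps in a library, this is no finding.

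In the RefSeq gene order on chromosome 14, 2610528A11Rik lies between Cdhr1, a photoreceptor cadherin, and Ghitm, a mitochondrial inner membrane protein. Cdhr1 had 0.291, 0.123 and 0.0992 FPKM in the libraries labelled K5-Cre;VDR f/f, 0.660, 2.03 and 1.99 FPKM in WT Oxarol, 0.0894, 0.348 and 0.104 FPKM in WT PBS, and 0.0156, 0.0153 and 0.0869 FPKM in WT untreated. It was highest in WT Oxarol, where no library overlapped another group, and lowest in WT untreated. Of all tested genes, 15.9% did not overlap between WT Oxarol and WT PBS and 18.8% between WT Oxarol and WT untreated. For WT Oxarol and the libraries labelled K5-Cre;VDR f/f the share was 42.2%. Cdhr1 did not pass the filter on low values and was not tested. Whether the counting used strand is not given in the sources used here, and a share of reads between the neighbouring genes was not tested. Ghitm averaged 118 FPKM in the libraries labelled K5-Cre;VDR f/f, 125 FPKM in WT Oxarol, 117 FPKM in WT PBS and 135 FPKM in WT untreated, and did not pass between the first pair (-0.08 ± 0.08, SE, limma, adjusted p = 0.541).

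**Figure D4:**
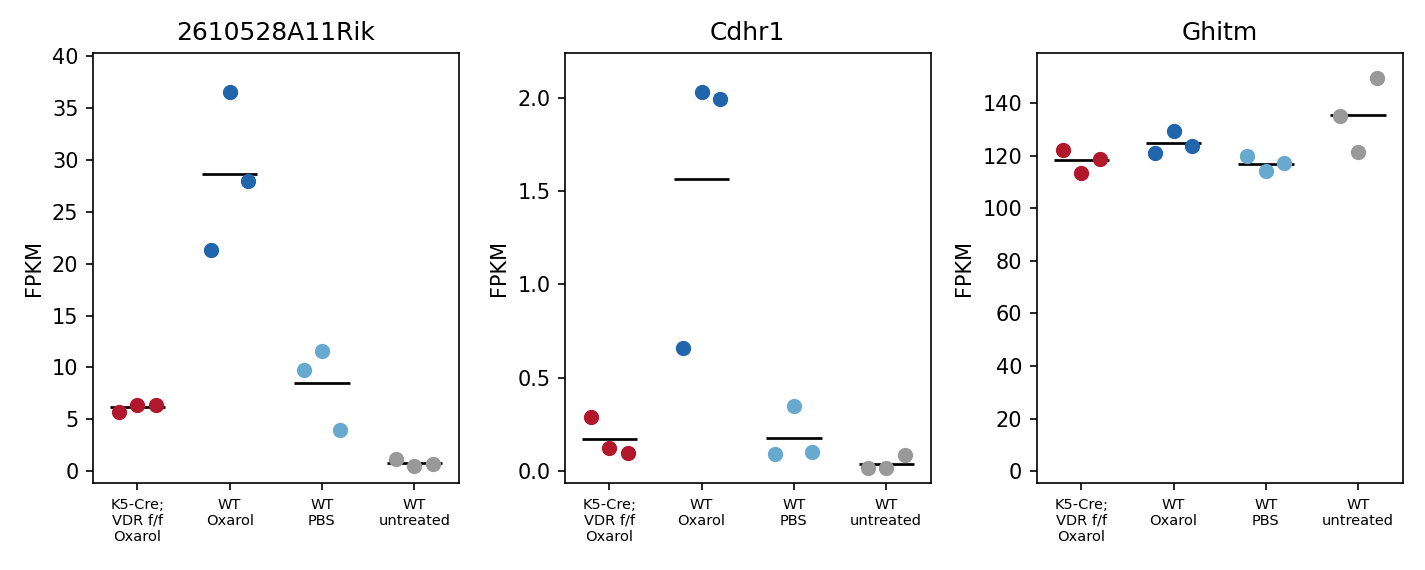
FPKM of 2610528A11Rik (left) and its neighbours Cdhr1 (middle) and Ghitm (right) by library, on linear axes of different height. Points are libraries and black lines group means. Cdhr1 is highest in WT Oxarol, at 0.660 to 2.03 FPKM, while the Ghitm means lie between 117 and 135 FPKM.

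Gpr15, on chromosome 16, lies beside Cpox, an enzyme of heme synthesis. Cpox averaged 18.7 FPKM in the libraries labelled K5-Cre;VDR f/f, 17.8 FPKM in WT Oxarol, 15.3 FPKM in WT PBS and 14.2 FPKM in WT untreated, and did not pass between the first pair (0.07 ± 0.15, SE, limma, adjusted p = 0.792).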

How the data were processed

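Total RNA of ear skin was made into 12 NEBNext Ultra libraries, per the labels' protocols. Build mm9 is named with TopHat2 2.0.8, Bowtie2 2.1.0 and also Cufflinks 2.1.1, per the submitters' processing notes. The authors deposited 1 value per gene symbol, taken here as FPKM from Cufflinks and the range of values, since the headers print no unit. Read totals are not known. Relative depth came from the steps of low values, and in 64.1% of 3526 low genes all values were whole multiples within 0.05 of a step. The step method and the model were tested on simulated data.

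Values were tested as log2(FPKM + 1), which understates changes of low genes, with limma 3.58.1 (R 4.3.3) in 1 model of 4 group means and 8 residual degrees of freedom. A gene entered if 3 or more libraries reached 1 FPKM (14059 genes), and p-values were adjusted by Benjamini-Hochberg at 0.05. Members, gene lists and tests were chosen with earlier results of these data known. The genes named are the members, Vdr, Cyp24a1, the 8 genes with the highest r to each member, up to 3 neighbours on each side, and up to 4 genes of each list by smallest p. Others (Foxp3, Ccr4, Ccr10, Selplg, S100a8, S100a9 and Defb4) were named after their values were seen.

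Alternatives were array weights, a robust variance model, the series of library codes as a term, a model of the 2 groups compared, leaving out each library in turn, median-of-ratios scaling, quantile normalization, a 5 FPKM filter or none, and a pseudocount of 0.1. Promoters are from RefSeq (GRCm38.p6), and no coordinate was converted to mm9. Figures were drawn with matplotlib 3.10.9.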

Additional observations from a re-analysis of the deposited data

How the results depend on the processing

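The fall of 2610528A11Rik in the libraries labelled K5-Cre;VDR f/f against WT Oxarol kept its direction and its call under all 21 alternatives (-2.21 to -1.72 on the log2 scale), as did its difference from WT untreated (1.85 to 2.96). Both rest on wild type libraries that chose 2610528A11Rik. Its difference from WT PBS passed under none of the 21 (-0.70 to -0.003; 0 called by limma, adjusted p 0.0635 to 0.997). With a pseudocount of 0.1 its described difference was 5.13 for WT Oxarol minus WT untreated and 3.28 for WT PBS minus WT untreated.

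The number of genes called moved more. For the libraries labelled K5-Cre;VDR f/f against WT Oxarol it was 1848, with 283 under the library series as a term, 3648 under array weights and 322 to 3435 when 1 library was left out. Quantile normalization turned the split of 1225 higher and 623 lower to 820 and 1292, and median-of-ratios scaling to 819 and 1149. Against WT PBS it was 2286, with 3737 (only the 2 groups compared), 611 (series), 5427 (weights) and 540 to 3881 (1 library left out). Against WT untreated it was 2668, with 435 (only the 2 groups), 1109 (series) and 1104 to 2905 (1 left out). For WT Oxarol minus WT PBS it was 43, with 0 by limma on only the 2 groups (1401 at an unadjusted p under 0.05), 360 (weights) and 4 to 128 (1 left out). For WT Oxarol minus WT untreated it was 184, with 44 (no filter), 12 (only the 2 groups), 561 (weights) and 28 to 248 (1 left out). For WT PBS minus WT untreated it was 1, with 5 (pseudocount 0.1), 4 (no filter), 6 (only the 2 groups), 3 (robust variance), 6 (weights) and 0 to 5 (1 left out). The causes were not tested. Of 497 alternative values of 24 named gene tests, 364 kept their call, 133 lost it and 0 reversed.

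No paired analysis was possible because the labels give no replicate numbers: those used here follow accession order and pair nothing. Depth limits Gpr15 to between 0 and 10 steps a library, and 3 libraries a group limit an exact test to p = 0.1.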
